A study of Homo sapiens with 11 samples.

Results

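The genes described here are the 9 collagen genes COL4A1, COL4A2, COL4A5, COL4A6, COL6A1, COL6A2, COL6A3, COL15A1 and COL18A1, picked by symbol from the 35303 genes of the count table. All 9 were among the 16117 genes with enough counts to be tested. RNA-seq was done on LX-2, an immortalised human line derived from hepatic stellate cells, which deposit scar matrix in the liver once activated. The cells were labelled wild type and grown in DMEM with fetal bovine serum. The 3 groups, taken at 24 h, were PBS, HIV-1BaL (a laboratory strain) at a multiplicity of infection of 0.1, and the same virus and dose with LTA (lipoteichoic acid, an amphiphile from the wall of Gram-positive bacteria) at 1 ug per ml. Each group held 3 libraries, 1 from each of 3 batches named in the labels, and no library had LTA without virus. The labels do not say that the libraries of a group came from separate cultures, so the p-values rest on a spread between libraries that may be technical. In bulk RNA, fewer cells with a transcript and less of it per cell cannot be told apart.

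Collagen IV is the network-forming collagen of basement membranes. Its chains join into trimers of fixed composition, among them the ubiquitous one made of alpha1 and alpha2 and a more restricted one of alpha5 and alpha6. The genes of each of these pairs lie head to head on their chromosome. Collagen VI, built from alpha1, alpha2 and alpha3 chains, forms beaded microfilaments between basement membranes and the surrounding matrix. Collagens XV and XVIII are basement membrane zone proteoglycans whose C-terminal fragments are restin and endostatin. In the liver, stellate cells and sinusoidal endothelial cells are both known sources of collagens IV, VI and XVIII.

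In the hg19 build COL4A1 lies on the minus strand of chromosome 13 at chr13:110801310-110959504 and COL4A2 on the plus strand at chr13:110958159-111165556. COL4A6 lies on the minus strand at chrX:107398837-107682727 and COL4A5 on the plus strand at chrX:107683068-107940775. COL18A1 (chr21:46825080-46933634), COL6A1 (chr21:47401684-47424964) and COL6A2 (chr21:47518026-47552762) follow each other on the plus strand of chromosome 21, with COL6A3 at chr2:238232646-238322971 on the minus strand and COL15A1 at chr9:101705461-101833074 on the plus strand. The stretches below are shown because the chains of a head-to-head pair share them and the results turn on these pairs. The first is the 126 bases between the RefSeq starts of COL4A1 and COL4A2 (GRCh37 chr13:110959505-110959630, plus strand), and the second the 250 bases before the start of COL4A5 (GRCh37 chrX:107682818-107683067, plus strand), out of 379 bases between it and the nearest start of COL4A6. Capitals mark the letters CCAAT and GGGCGG or their reverse complements ATTGG and CCGCCC.
COL4A1-COL4A2: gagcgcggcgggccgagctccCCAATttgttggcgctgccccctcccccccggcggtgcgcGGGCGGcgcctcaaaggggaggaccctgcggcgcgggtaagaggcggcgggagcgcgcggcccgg
COL4A5 upstream: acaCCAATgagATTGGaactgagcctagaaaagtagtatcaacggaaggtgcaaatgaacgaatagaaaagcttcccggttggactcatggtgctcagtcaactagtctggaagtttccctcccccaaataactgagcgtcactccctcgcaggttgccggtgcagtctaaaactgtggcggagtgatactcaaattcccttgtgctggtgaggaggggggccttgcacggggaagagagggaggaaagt

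The COL4A1-COL4A2 stretch held 1 CCAAT and 1 GGGCGG, and the COL4A5 stretch held 2 CCAAT and no GGGCGG. Neither held TATAAA on either strand. Over 300-base RefSeq windows (GRCh38.p14, from 250 bases before a start to 50 after it), 34.6% of 35116 windows held CCAAT on either strand, 45.0% held GGGCGG (reverse complement CCGCCC) and 11.5% held TATAAA (reverse complement TTTATA). Windows were found for 8 of the 9 genes, and 1 window of COL18A1 held 9 GGGCGG matches at a G and C content of 86.7%. These are letter matches only. No peak of the deposited ChIP-seq list of HIV-1 treated cells, which holds 166 peaks, lay within 10 kb of any of the 9 genes. The nearest peak was 40401 bases from COL18A1, and the antibody is not named in the labels. The sample behind that list is titled as LX-2, but its cell line label reads Lx5, so whether the peaks come from the line used for RNA-seq is not settled by the labels.

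The libraries held 50.6 to 90.6 M counts. Batch 3 was set apart in each treatment: 71.2% of all genes tested differed between batch 3 and batches 1 and 2 (edgeR quasi-likelihood test, Benjamini-Hochberg adjusted p below 0.05). Batch 3 libraries had 50.6 to 62.2 M counts against 55.2 to 90.6 M in batches 1 and 2. Of 14 stellate cell and myofibroblast markers, 11 reached 1 CPM (counts scaled to the size of the library), among them ACTA2 (72.0 to 218 CPM) and COL1A1 (794 to 1426 CPM), while DES, GFAP and LRAT stayed below 1 CPM in every library. The summed stellate markers ran from 5464 to 6913 CPM in batch 3 and from 3070 to 4297 CPM in batches 1 and 2. HAND2, a transcription factor of stellate cells, was at 0 to 0.0825 CPM in batch 3 and at 2.97 to 4.36 CPM in the other batches. Of 10 endothelial markers, 6 stayed below 1 CPM everywhere, with PECAM1 at most 0.208 CPM, CDH5 at most 0.534 CPM and VWF at most 0.598 CPM. The other 4 reached 1 CPM, with highest values of 9.33 for TEK, 8.71 for TIE1, 5.19 for EGFL7 and 2.06 for ROBO4.

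Per length of transcript, COL4A2 was the most abundant of the 9 genes and COL15A1 the least. On the scale of CPM per kb of the canonical transcript, means over the 9 libraries were 108.84 for COL4A2, 45.2 for COL4A1, 16.1 for COL6A3, 8.29 for COL18A1, 7.17 for COL6A1, 5.04 for COL6A2, 4.34 for COL4A5, 0.591 for COL4A6 and 0.204 for COL15A1. COL4A2 exceeded COL4A1 in 9 of 9 libraries, COL4A1 exceeded COL6A3 in 9 of 9, and COL6A3 exceeded COL18A1 in 9 of 9. The middle of the order was not separated: COL18A1 exceeded COL6A1 in 6 of 9 libraries, COL6A1 exceeded COL6A2 in 6 of 9, and COL6A2 exceeded COL4A5 in 5 of 9. COL4A5 exceeded COL4A6 in 9 of 9, and COL4A6 exceeded COL15A1 in 9 of 9. By mean CPM, COL4A2 ranked 162 and COL4A1 ranked 626 among the 16117 genes tested, whereas COL4A6 ranked 11000 and COL15A1 ranked 12862. The alpha1 and alpha2 chain genes made up 96.8% ± 1.37 (SD, n = 9) of the counts of the 4 collagen IV genes, with a range of 93.9% to 98.5%.

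**Figure D1:**
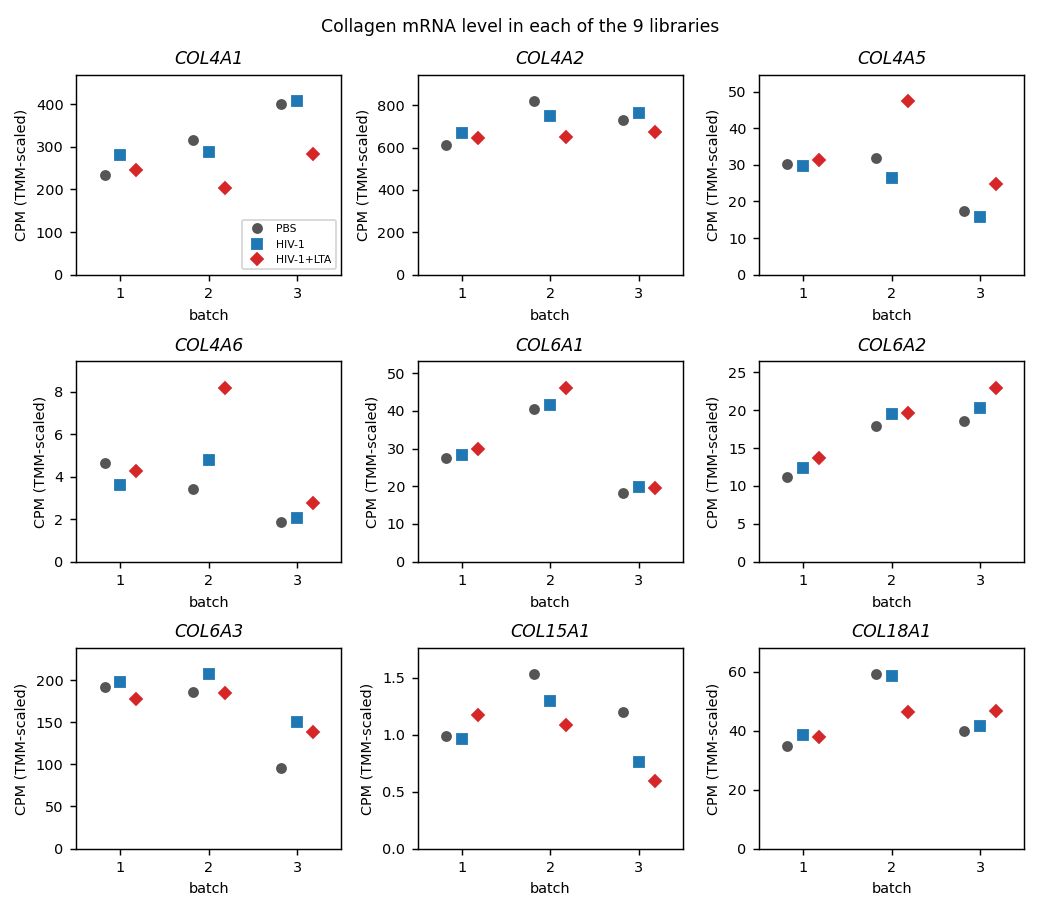
Level of each of the 9 collagen genes in each of the 9 libraries, in CPM (TMM-scaled, linear axis from 0) by batch, with 1 point per library and treatments by colour and shape. The levels of COL4A5, COL4A6, COL6A1 and COL6A3 in batch 3 lie below those of the other 6 libraries whatever the treatment, and in batches 2 and 3 the library with LTA is the highest of its batch for COL4A5 and the lowest for COL4A1.

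The treatment comparisons ask whether exposure to the virus, or to the virus with LTA, altered the mRNA of these chains within a batch. The virus was compared with PBS, and the virus with LTA first with the virus alone and then with PBS. In the edgeR quasi-likelihood test with batch as a block, none of the 9 genes passed an adjusted p of 0.05 in any of these 3 comparisons. That test called 0% of all genes in each, while 4.21%, 15.4% and 16.8% of all genes, in that order, had an unadjusted p below 0.05. For every one of the 9 genes the ranges of the treatment groups overlapped in each comparison, which was so for all but 2.74%, 4.37% and 3.82% of all genes. DESeq2 with the same block called COL4A5 higher in HIV-1+LTA than in HIV-1, 1 of the 9, with 1.82% of genes called in that comparison and 1.34% called higher. In the 2 comparisons with PBS, DESeq2 called none of the 9, with 0.015% of genes called for HIV-1 and 1.93% for HIV-1+LTA.

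COL4A5, the chain gene mutated in X-linked Alport syndrome, was highest in the LTA library of every batch. Its levels were 30.2, 31.9 and 17.4 CPM in PBS (batches 1, 2 and 3), 29.8, 26.4 and 15.9 CPM in HIV-1, and 31.3, 47.5 and 24.7 CPM in HIV-1+LTA. The library with LTA exceeded both others of its own batch in 3 of 3 batches, by little in batch 1. The ranges of the groups still overlapped. The batch 3 library was the lowest of each group, and the LTA library of batch 1 (31.3 CPM) lay below the PBS library of batch 2 (31.9 CPM). In log2 CPM, adding LTA to the virus went with differences of 0.07, 0.85 and 0.63 in batches 1, 2 and 3. The edgeR log2 fold change was 0.52 (SE 0.115, 1.44-fold), with an unadjusted p of 7.44e-04 and an adjusted p of 0.171. DESeq2 with the block gave the same comparison 0.52 (SE 0.115, adjusted p = 0.00238). Against PBS, the edgeR log2 fold change of HIV-1+LTA was 0.38 (SE 0.114, adjusted p = 0.205). The authors' deposited table gives 0.38 for COL4A5 with an adjusted p of 0.0505, above the threshold of 0.05. Its difference between HIV-1 and PBS was a log2 fold change of -0.14 (SE 0.115, edgeR adjusted p = 0.946).

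COL4A6, the other gene of the X-linked pair, had 93 to 582 counts per library. It stood at 4.63, 3.41 and 1.86 CPM in PBS, 3.61, 4.77 and 2.06 CPM in HIV-1, and 4.26, 8.20 and 2.76 CPM in HIV-1+LTA (batches 1, 2 and 3). The HIV-1+LTA library exceeded the HIV-1 library in 3 of 3 batches and the PBS library in 2 of 3. The differences from HIV-1 were 0.24, 0.78 and 0.42 in log2 CPM, for an edgeR log2 fold change of 0.51 (SE 0.211, adjusted p = 0.281). For both genes of the X-linked pair the LTA difference was largest in batch 2 and smallest in batch 1. The counts of COL4A6 per COL4A5 count ran from 0.107 to 0.181, and the log2 ratio differed by 0.17, -0.07 and -0.21 between HIV-1+LTA and HIV-1 in the 3 batches, in both directions.

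COL4A1 had the opposite sign in the comparison with HIV-1. Its levels were 235, 317 and 401 CPM in PBS, 282, 287 and 408 CPM in HIV-1, and 245, 203 and 282 CPM in HIV-1+LTA (batches 1, 2 and 3). The HIV-1+LTA library was below the HIV-1 library in 3 of 3 batches, and below the PBS library in batches 2 and 3 only. In log2 CPM the differences were -0.20, -0.50 and -0.53 from the HIV-1 library and 0.06, -0.64 and -0.51 from the PBS library. The edgeR log2 fold change was -0.40 against HIV-1 (SE 0.102, 0.756-fold, unadjusted p = 0.00205, adjusted p = 0.171) and -0.36 against PBS (SE 0.102, adjusted p = 0.205). DESeq2 with the block gave -0.40 against HIV-1 with a larger SE of 0.180 and an adjusted p of 0.250.

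COL4A2, the partner of COL4A1 in the ubiquitous trimer, varied less. Its levels were 613, 821 and 730.4 CPM in PBS, 670.4, 749 and 761 CPM in HIV-1, and 644, 652 and 673 CPM in HIV-1+LTA (batches 1, 2 and 3). The HIV-1+LTA library was below the HIV-1 library in 3 of 3 batches, by -0.06, -0.20 and -0.18 in log2 CPM, and the 3 HIV-1+LTA libraries lay within the range of the PBS libraries. The edgeR log2 fold change was -0.14 (SE 0.0691, adjusted p = 0.349) against HIV-1 and -0.13 (SE 0.0692, adjusted p = 0.369) against PBS. With both genes read in the same library, COL4A2 counts per COL4A1 count were 2.61, 2.59 and 1.82 in PBS, 2.38, 2.61 and 1.86 in HIV-1, and 2.63, 3.22 and 2.38 in HIV-1+LTA. In log2 this ratio was higher in HIV-1+LTA than in HIV-1 by 0.14, 0.30 and 0.35 in the 3 batches. The spans of COL4A1 and COL4A2 overlap by 1346 bases on opposite strands with no exon in common, so reads of mature transcripts do not fall on both.

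The ratio of COL4A5 to COL4A1 counts joins these opposite differences in 1 value per library that needs no scaling between libraries. It was 0.128, 0.101 and 0.0433 in PBS, 0.106, 0.0919 and 0.0389 in HIV-1, and 0.128, 0.234 and 0.0873 in HIV-1+LTA (batches 1, 2 and 3). HIV-1+LTA exceeded HIV-1 in each batch, by 0.27, 1.35 and 1.17 in log2 (mean 0.93, SD 0.579, n = 3), and exceeded PBS in batches 2 and 3 by 1.22 and 1.01, with a difference of -0.01 in batch 1. The smallest two-sided exact p is 0.1 with 3 libraries a group, and 0.25 when signs are exchanged within 3 batches, so ratios between treatments are given as values only.

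Batch 1 showed smaller LTA differences than the others for COL4A1 and COL4A5, and the calls depended on it. With the libraries of batch 1 left out, edgeR called 3 of the 9 genes between HIV-1+LTA and HIV-1, beside 9.69% of all genes: COL4A1 at -0.51 (SE 0.0609, adjusted p = 0.00103), COL4A5 at 0.76 (SE 0.0804, adjusted p = 4.65e-04) and COL4A6 at 0.65 (SE 0.177, adjusted p = 0.0438). The same 3 genes passed against PBS, beside 10.7% of all genes, with log2 fold changes of -0.57 for COL4A1 (edgeR adjusted p = 4.74e-04), 0.55 for COL4A5 (adjusted p = 0.00243) and 1.00 for COL4A6 (adjusted p = 0.00795). Without batch 1 none of the 9 passed for HIV-1 against PBS, with 0.0309% of genes called. With batch 2 or batch 3 left out instead, edgeR called none of the 9 and 0% of all genes in any treatment comparison. The log2 fold change from HIV-1 to HIV-1+LTA was then 0.35 and 0.47 for COL4A5 and -0.36 and -0.34 for COL4A1. Whether the 3 batches differed in their response to LTA was not tested. With the single HIV-1+LTA library of batch 1 left out, 4 of the 9 passed in edgeR in both comparisons with LTA (COL4A5 and COL4A6 higher, COL4A1 and COL4A2 lower), beside 14.6% of all genes against HIV-1 and 16.2% against PBS. Without the PBS library of batch 1, COL4A1 passed against PBS at -0.52 (edgeR adjusted p = 0.0354), beside 0.551% of all genes. With no filter on low counts and all 9 libraries, edgeR called COL4A1 lower and COL4A5 and COL4A6 higher in both comparisons with LTA, beside 4.02% of the genes then tested against HIV-1 and 4.14% against PBS. That setting also called COL6A3 higher with HIV-1 than with PBS, at 0.26 (edgeR adjusted p = 0.0447), beside 0.119% of genes.

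**Figure D2:**
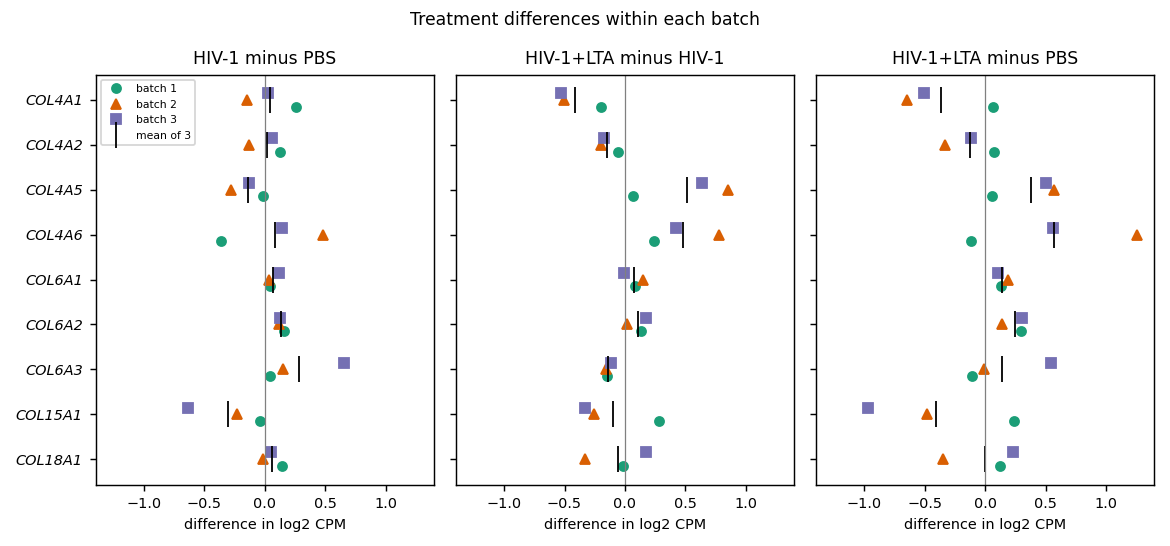
Differences in log2 CPM between 2 treatments within each batch (symbols) and their mean over 3 batches (vertical bars), for each gene, with 1 panel per comparison. In the HIV-1+LTA minus HIV-1 panel COL4A1 and COL4A2 lie left of 0 and COL4A5 and COL4A6 right of 0 in all 3 batches, with batch 1 nearest to 0 for each of these 4 genes.

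Collagen VI genes differed little between treatments. COL6A1 stood at 27.4, 40.5 and 18.1 CPM in PBS, 28.2, 41.5 and 19.7 CPM in HIV-1, and 29.9, 46.2 and 19.5 CPM in HIV-1+LTA (batches 1, 2 and 3). HIV-1+LTA exceeded PBS in 3 of 3 batches by 0.11 to 0.19 in log2 CPM, with an edgeR log2 fold change of 0.14 (SE 0.0566, adjusted p = 0.246). COL6A2 stood at 11.1, 17.9 and 18.6 CPM in PBS, 12.4, 19.4 and 20.3 CPM in HIV-1, and 13.6, 19.7 and 23.0 CPM in HIV-1+LTA. In every batch PBS was the lowest and HIV-1+LTA the highest for this chain, and the edgeR log2 fold change between those groups was 0.24 (SE 0.0668, unadjusted p = 0.00356, adjusted p = 0.205).

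COL6A3, whose C-terminal fragment is endotrophin, was the most abundant collagen VI chain gene. Its levels were 192, 186 and 95.4 CPM in PBS, 198, 207 and 150.1 CPM in HIV-1, and 178, 185 and 139 CPM in HIV-1+LTA (batches 1, 2 and 3). The HIV-1 library exceeded the PBS library in 3 of 3 batches, by 0.04, 0.15 and 0.65 in log2 CPM, so most of the mean difference came from batch 3. The edgeR log2 fold change was 0.27 (SE 0.103, unadjusted p = 0.0227, adjusted p = 0.946), and it ran from 0.09 to 0.39 over fits that each left out 1 library or 1 batch. HIV-1+LTA was below HIV-1 in 3 of 3 batches by -0.15, -0.16 and -0.11, for a log2 fold change of -0.14 (SE 0.103, adjusted p = 0.538).

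Neither multiplexin gene differed between treatments beyond the spread of the libraries. COL18A1 stood at 34.9, 59.1 and 39.9 CPM in PBS, 38.4, 58.5 and 41.5 CPM in HIV-1, and 37.9, 46.4 and 46.8 CPM in HIV-1+LTA (batches 1, 2 and 3). The LTA library was the lowest of batch 2 and the highest of batch 3, and the edgeR log2 fold change against HIV-1 was -0.06 (SE 0.0938, adjusted p = 0.807). COL18A1 shares 1563 exonic bases with SLC19A1 on the opposite strand, a folate transporter gene with 579 to 1230 counts per library, and the strand setting of the counting is not given in the sources used here. COL15A1 had 29 to 124 counts per library: 0.993, 1.53 and 1.20 CPM in PBS, 0.963, 1.30 and 0.761 CPM in HIV-1, and 1.18, 1.09 and 0.598 CPM in HIV-1+LTA. The lowest 2 values were the batch 3 libraries with virus, and the edgeR log2 fold change of HIV-1 against PBS was -0.30 (SE 0.242, adjusted p = 0.946).

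By sign alone, 5 of the 9 genes had a difference of 1 sign in 3 of 3 batches between HIV-1 and PBS, where 33.3% of all genes did. With LTA the count was 6 relative to HIV-1 (33.8% of all genes) and 3 relative to PBS (33.9%). These comparisons share libraries and are not separate evidence. The 6 were COL4A1, COL4A2 and COL6A3, lower with LTA, and COL4A5, COL4A6 and COL6A2, higher. Median log2 fold changes of the 9 genes were 0.05, -0.06 and 0.13 in the 3 comparisons, while those of all genes lay near 0.

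Taken without sign, the middle log2 fold change among the 9 genes was 0.47 between batch 3 and the other batches, and 0.06, 0.14 and 0.24 in the 3 treatment comparisons. Over all genes tested the same measure was 0.44 for batch 3, and 0.07, 0.10 and 0.11 between treatments. In batch 3 against batches 1 and 2, 6 of the 9 passed in edgeR, 2 higher and 4 lower, where 71.2% of all genes passed, 35.2% higher and 36% lower. The 9 genes thus took part in a difference that most genes showed. COL4A1 was higher in batch 3 by 0.47 in log2 (SE 0.0867, 1.38-fold, adjusted p = 4.11e-04), at 364 ± 70.7 CPM (SD, n = 3) against 261 ± 41.4 CPM (n = 6). COL4A5 was lower by a log2 fold change of -0.77 (SE 0.103, adjusted p = 2.83e-05), at 19.3 ± 4.71 CPM against 32.8 ± 7.44 CPM. COL4A6 was lower at -1.10 (SE 0.196, 0.468-fold, edgeR adjusted p = 3.16e-04). COL4A2 did not pass, at 0.06 (SE 0.0597, adjusted p = 0.348).

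The collagen VI chains did not move together in batch 3. COL6A1 was lower at a log2 fold change of -0.87 (SE 0.0515, 0.548-fold, edgeR adjusted p = 2.50e-08), and COL6A3 was lower at -0.59 (SE 0.0916, adjusted p = 9.93e-05). COL6A2 was higher at 0.43 (SE 0.0574, adjusted p = 3.12e-05), but batch 3 against batch 2 alone gave 0.12 (edgeR adjusted p = 0.143), and against batch 1 alone 0.74. In batch 3 the levels of COL4A5, COL4A6, COL6A1 and COL6A3 did not overlap those of the other 6 libraries, which was so for 60.8% of all genes. COL18A1 was at -0.07 (SE 0.0816, adjusted p = 0.436) and COL15A1 at -0.47 (SE 0.222, adjusted p = 0.0764), but COL18A1 passed without the HIV-1+LTA library of batch 2 (-0.15, edgeR adjusted p = 0.0187), and COL15A1 passed without the PBS library of batch 1 (-0.60, 0.0315) or batch 3 (-0.73, 0.0309). Against batch 2 alone both were lower in batch 3, COL18A1 at -0.35 (edgeR adjusted p = 0.00518) and COL15A1 at -0.63 (adjusted p = 0.0412), whereas against batch 1 alone COL18A1 was at 0.21 (adjusted p = 0.0708).

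Scaled by library totals only, the median log2 fold change of all genes in batch 3 against the other batches was -0.17 instead of -0.01, and called genes split into 4264 higher and 7367 lower instead of 5669 and 5809. Under that scaling 8 of the 9 collagen genes passed, 2 higher and 6 lower, beside 72.2% of all genes, and COL4A2 turned to -0.09. Of 12 stellate cell and myofibroblast markers tested, 5 were higher and 4 lower in batch 3 in edgeR. VIM was at 2451 to 3128 CPM in batch 3 against 539 to 793 CPM in the other batches, and COL1A2, a fibrillar collagen chain, at 271 to 323 CPM against 33.2 to 41.1 CPM. The fibrillar chains COL3A1 and COL1A1 were lower in batch 3, at log2 fold changes of -1.46 (edgeR adjusted p = 6.97e-07) and -0.40 (adjusted p = 0.00176). Of 8 endothelial markers tested, 2 were higher and 3 lower in batch 3: the receptor gene TEK was at 2.44 to 3.30 CPM against 6.97 to 9.33 CPM, and TIE1, the related receptor gene, at 6.22 to 8.71 CPM against 3.98 to 4.81 CPM. Summed leukocyte markers were at 3.14 to 4.64 CPM against 14.5 to 20.6 CPM, of which CD4 made up 1.36 to 2.43 CPM in batch 3 and 12.8 to 18.2 CPM in the others. CSF1R, another gene of that list, was higher in batch 3 at 0.56 (edgeR adjusted p = 0.0286). Their part in the collagen differences was not tested.

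**Figure D3:**
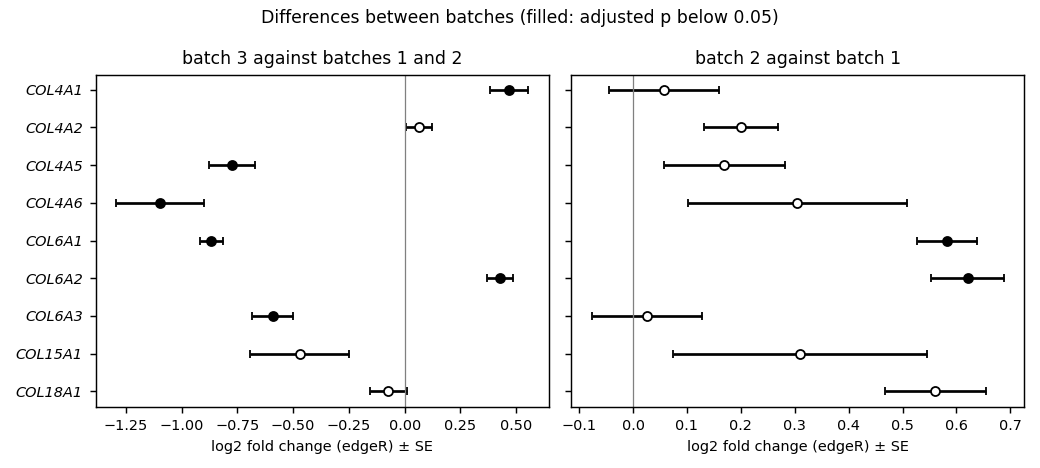
Log2 fold change (points) and its SE (bars) from edgeR for each gene between batches, with filled points for an adjusted p below 0.05. On the left (batch 3 against batches 1 and 2) COL4A1 and COL6A2 lie above 0 and COL4A5, COL4A6, COL6A1 and COL6A3 below 0, and on the right (batch 2 against batch 1) COL6A1 and COL6A2 are filled.

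Far fewer genes were called between batches 1 and 2 than between batch 3 and the others. In batch 2 against batch 1, 1869 of 16117 genes had an unadjusted p below 0.05 in edgeR. After adjustment it called 5 genes, all higher, which is 0.031% of genes. COL6A1 and COL6A2, neighbours on chromosome 21, were 2 of these 5. COL6A1 was higher by 0.58 in log2 (SE 0.0557, 1.5-fold, adjusted p = 0.00244), at 42.8 ± 3.00 CPM (SD, n = 3) in batch 2 and 28.5 ± 1.28 CPM in batch 1. COL6A2 was higher by 0.62 (SE 0.0672, 1.54-fold, adjusted p = 0.00597), at 19.0 ± 0.962 CPM against 12.4 ± 1.25 CPM. The third chain, COL6A3, gave 0.03 (SE 0.102, adjusted p = 0.949). The remaining 3 called genes were ABI3BP at 0.59, MELTF at 0.50 and HSPG2 at 0.57, the last of which encodes perlecan, a basement membrane proteoglycan.

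COL18A1 came close to the threshold in the same comparison. It was higher in batch 2 by 0.56 (SE 0.0932, edgeR adjusted p = 0.0954), and DESeq2 with the block called it at 0.54 (SE 0.0967, adjusted p = 3.44e-05) together with COL6A1 and COL6A2, with 0.916% of genes called and 0.68% called higher. Levels of COL6A1, COL6A2 and COL18A1 in batch 2 lay wholly above those in batch 1, as for 19.8% of all genes in either direction. Neither edgeR call held without the PBS library of batch 2, where COL6A1 was at 0.57 (adjusted p = 0.0831) and COL6A2 at 0.57 (adjusted p = 0.180). These log2 fold changes were near the 0.58 and 0.62 of all libraries, and edgeR called 1 gene in all in that fit. The call of COL6A2 was also lost without the PBS library of batch 1 (adjusted p = 0.0743) and without the HIV-1 library of batch 1 (0.0683) or batch 2 (0.0777). COL18A1 passed in edgeR without the HIV-1+LTA library of batch 1 (0.60, adjusted p = 0.0123) or batch 2 (0.71, adjusted p = 0.00116). In these fits edgeR called 214 of 16342 and 127 of 16296 genes, against 5 with all libraries. The other tested genes within 500 kb of these 3 on chromosome 21 numbered 20, none called, with a median log2 fold change of 0.12 (range -0.12 to 0.45).

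Ratios between chains of 1 library gave the batch differences without scaling. COL6A2 per COL6A1 count was 0.406, 0.440 and 0.456 in batch 1 (PBS, HIV-1, HIV-1+LTA), 0.442, 0.468 and 0.426 in batch 2, and 1.03, 1.03 and 1.18 in batch 3. Batches 1 and 2 had overlapping ranges of this ratio although both genes were higher in batch 2, and batch 3 did not overlap them. The difference of batch 3 was 1.29 in log2 (exact permutation test over 84 assignments of 9 libraries, two-sided p = 0.0119, adjusted over 6 ratios 0.0357). COL4A5 per COL4A1 differed by -1.24 (exact permutation p = 0.0119, adjusted 0.0357) and COL4A2 per COL4A1 by -0.41 (exact permutation p = 0.0238, adjusted 0.0476). Other gene pairs were not tested, so no share over such pairs can be set beside these calls. Between batch 3 and the other batches, 71.2% of all genes were called in edgeR and 60.8% did not overlap.

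The other 3 ratios did not pass: COL4A6 per COL4A5 at -0.30 (exact permutation p = 0.167, adjusted 0.2), COL6A3 per COL6A1 at 0.27 (p = 0.25, adjusted 0.25) and COL15A1 per COL18A1 at -0.43 (p = 0.119, adjusted 0.179). With 84 assignments the smallest p allowed is 0.0119. The 3 called ratios were also permuted only within a treatment, over 27 assignments. Each had an exact permutation p of 0.0370 and an adjusted 0.0741, so none passed. As 0.0370 is the smallest p that 27 assignments allow, this setting cannot decide on the ratios. None of the 3 passed either when any library but the HIV-1 library of batch 1 was left out, with adjusted exact p from 0.0535 to 0.143. Leaving out a library also leaves fewer assignments and raises the smallest p. The loss of these calls cannot be told apart from that limit.

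**Figure D4:**
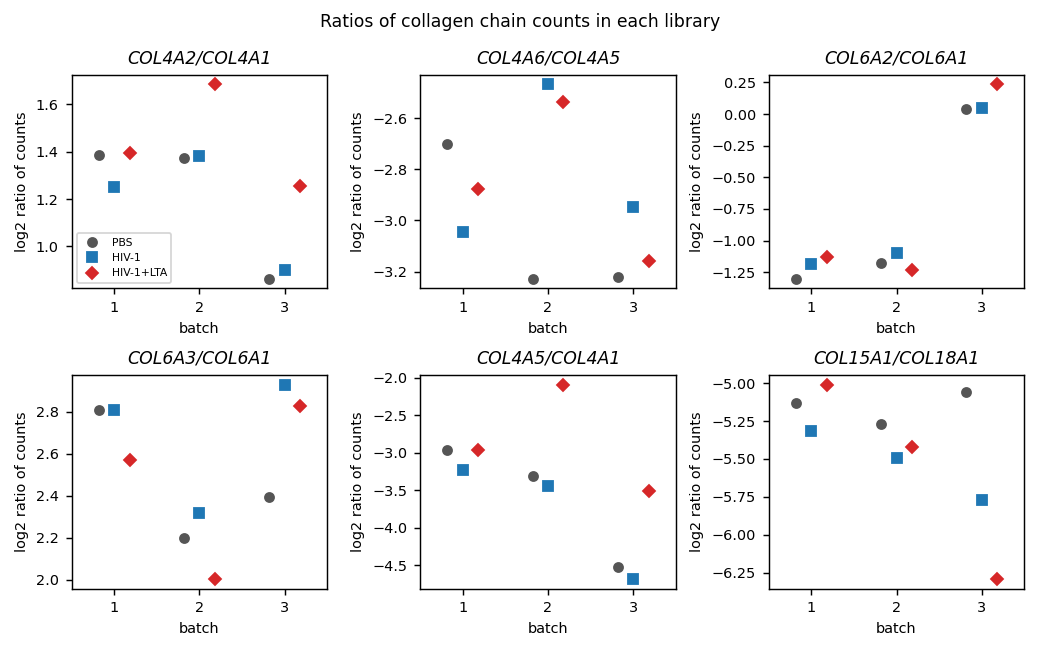
Log2 ratio of the counts of 2 chains in each library by batch, with 1 panel per ratio, 1 point per library and treatments by colour and shape. COL6A2/COL6A1 lies between -1.30 and -1.10 in batches 1 and 2 and between 0.04 and 0.24 in batch 3, and COL4A5/COL4A1 is highest in the library with LTA in batches 2 and 3.

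Of 23 other basement membrane genes (laminin chains, nidogens, perlecan, agrin and binding proteins), 20 were tested. With all 9 libraries none of them passed in edgeR in a treatment comparison. DESeq2 with the block called FBLN2 higher, at 0.44 (SE 0.0996, adjusted p = 0.00385), and TINAGL1 lower, at -0.39 (SE 0.109, adjusted p = 0.0262), in HIV-1+LTA than in HIV-1. FBLN2 encodes fibulin-2, which binds laminin and nidogen. Against PBS DESeq2 called LAMA5 at 0.44, AGRN at 0.32 and FBLN2 at 0.44 higher and TINAGL1 at -0.39 lower. LAMA5, the laminin alpha5 chain gene, stood at 32.0, 34.9 and 11.8 CPM in PBS and 35.0, 53.2 and 18.3 CPM in HIV-1+LTA (batches 1, 2 and 3). As for COL4A5, its LTA library was the highest of each batch and batch 3 was low. Over all genes DESeq2 called 1.82% against HIV-1 and 1.93% against PBS. Median log2 fold changes of the list were 0.10 against HIV-1 and 0.15 against PBS. When batch 1 was left out, edgeR called 7 of the 20 higher and 2 lower against HIV-1, beside 9.69% of all genes. Relative to PBS it then called 8 higher and 2 lower, beside 10.7% of all genes.

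With all 9 libraries, other chains and handling genes also had few treatment calls. Of 8 further collagen IV, VI, VII, VIII and XVII genes, 6 were tested and none passed in either tool between treatments; COL8A1, a network collagen of vessel walls, was at 0.20 (SE 0.0600, edgeR adjusted p = 0.205) with LTA relative to virus alone. Of 16 receptor genes, DESeq2 with the block called BCAM, a laminin alpha5 receptor, at 0.30 (adjusted p = 0.0285) and ITGB4, the integrin beta4 chain, at 0.65 (adjusted p = 0.0482), both higher in HIV-1+LTA than in HIV-1. In that comparison DESeq2 called 1.82% of all genes. None of the 16 passed in edgeR between treatments. Of 17 genes for chain folding, hydroxylation and export, none passed between treatments in either tool, and SERPINH1, the collagen chaperone HSP47, was at 0.12 (SE 0.0486, edgeR adjusted p = 0.246) for HIV-1+LTA against PBS. Of 15 proteases and inhibitors, DESeq2 called TIMP1 higher against PBS at 0.32 (adjusted p = 0.0446), beside 1.93% of all genes called. When batch 1 was left out, edgeR called 7 receptor genes higher against HIV-1, beside 9.69% of all genes. It also called 4 proteases and inhibitors higher and 1 lower. Relative to PBS it called 5 receptor and 2 chain processing genes higher, beside 10.7% of all genes. Proteases and inhibitors then split into 5 higher and 2 lower.

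Marker sums of other cell types are given here by treatment group, with no test made of them. Endothelial markers summed to 18.2 to 20.4 CPM in HIV-1+LTA, 15.2 to 18.2 CPM in HIV-1 and 13.7 to 18.5 CPM in PBS. Most of each sum came from TEK, TIE1, EGFL7 and ROBO4, with PECAM1 and CDH5 near 0. Epithelial markers summed to 436 to 576 CPM in HIV-1+LTA, 563 to 700.3 CPM in HIV-1 and 548 to 720 CPM in PBS, nearly all of it KRT8 and KRT18. Their part in the collagen IV differences was not tested. Of 12 stellate cell and myofibroblast markers tested in HIV-1+LTA against HIV-1, DESeq2 called 1, beside 1.82% of all genes. It was VIM, which encodes the mesenchymal filament protein vimentin, lower at -0.31 (SE 0.0824, DESeq2 adjusted p = 0.0199). EdgeR called 0 of the 12, and 6 of the 12 had a log2 fold change above 0. When batch 1 was left out, edgeR called 3 of this list higher and 4 lower, beside 9.69% of all genes. Hepatocyte markers summed to at most 2.30 CPM in any library.

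Between batches the partner genes changed widely, as most genes did. Of the 20 tested basement membrane partners, 11 were higher and 6 lower in batch 3 in edgeR, among them LAMA4 at 3.54, FBLN1 at 2.51 and NTN4 at 2.33, and LAMA5 at -1.34 (adjusted p at most 4.17e-08 for these 4). Of the 6 other chains tested, 2 were higher and 3 lower, with COL7A1, the anchoring fibril collagen, at -2.42 and COL8A1 at 0.83. Receptors split into 7 higher and 7 lower, with the collagen-binding integrin gene ITGA1 at -1.66 and the collagen VI-binding ANTXR2 at 0.97. Chain processing genes split into 6 higher and 8 lower, with P3H2, a prolyl 3-hydroxylase gene, at 1.20, and proteases and inhibitors into 5 higher and 9 lower, with ADAMTS5 at -4.43.

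In batch 2 against batch 1, HSPG2 was the only partner called by edgeR, at 0.57 (SE 0.0754, adjusted p = 0.0277). It stood at 29.2, 34.0 and 34.9 CPM in batch 1 (PBS, HIV-1, HIV-1+LTA) and 49.96, 43.6 and 51.3 CPM in batch 2, with no overlap. DESeq2 with the block also called LAMB2 at 0.34 (adjusted p = 1.46e-04), AGRN at 0.37 (adjusted p = 0.00139) and NTN4 at 0.35 (adjusted p = 0.0366) higher. Over all genes DESeq2 called 0.68% higher in this comparison. Perlecan, agrin and collagen XVIII are the heparan sulfate proteoglycans of basement membranes. The median log2 fold change of the 20 partners was 0.12, against 0.30 for the 9 collagen genes and 0.00 for all genes.

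**Figure D5:**
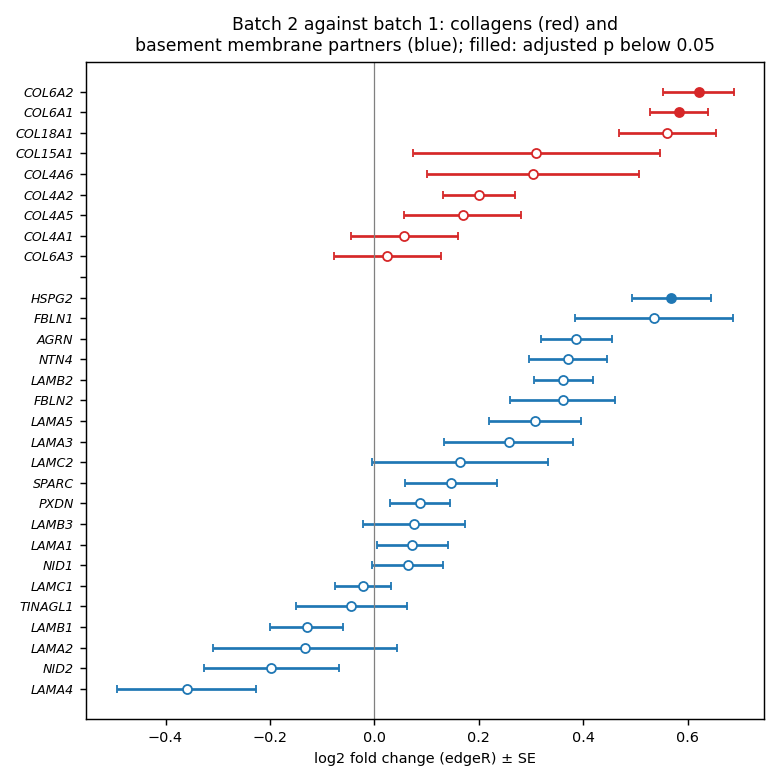
Log2 fold change (points) and SE (bars) from edgeR in batch 2 against batch 1 for the 9 collagen genes (red) and the 20 tested basement membrane partners (blue), ordered by size, with filled points for an adjusted p below 0.05. COL6A2, COL6A1 and HSPG2 are filled, and COL18A1 lies at 0.56 with an adjusted p of 0.0954.

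Likeness of pattern was read over the 9 libraries as Pearson correlations of log2 CPM, among genes averaging 10 CPM or more (9318 besides COL4A1 itself). The libraries share batches, and batch 3 lies apart for most genes, so the values are a description only. The genes most like COL4A1 were ARID1A (r = 0.990), LCP1 (0.985) and HBEGF (0.983). COL4A2 ranked 2363 (r = 0.713) and COL4A5 ranked 9212 (r = -0.91). With batch means removed, YARS2 (r = 0.993), PPP1R13L (0.993) and MICAL2 (0.992) led. COL4A2 then rose to rank 126 (r = 0.946), and COL4A5 stood at rank 8943 (r = -0.88). COL4A6, whose mean of 3.95 CPM keeps it out of that set of genes, had r = -0.92 before batch means were removed and -0.94 after. For COL6A3 the leading genes were KDM5C (r = 0.973), PER1 and AARS2, and with batch means removed ENG (r = 0.992), PLEKHM2 and WNK4. For COL15A1 they were CPEB2 (r = 0.963), VGLL3 and ZFHX4, and then XBP1 (r = 0.995), HACD1 and CSGALNACT2. For COL18A1 they were RALY (r = 0.958), LMNA and TCF19, and then RPS2 (r = 0.978), FAU and PSMF1, with COL4A2 at rank 131 (r = 0.703) before batch means were removed.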

How the data were processed

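For the 9 RNA-seq libraries the authors deposited unnormalised counts, 1 value per gene symbol, made with fastp, STAR, SAMtools and HTSeq on hg19 per the submitters' processing notes, with versions and strand setting not given in the sources used here. Their deposited DESeq2 table holds, for each gene, a log2 fold change and its error, the mean signal, p-values before and after adjustment and a Wald score, per the file headers. It names no comparison; its log2 fold changes were matched by DESeq2 on group plus batch within 0.01 for 19990 of 19990 genes for HIV-1+LTA against PBS. The deposited peak list holds positions only, and peaks from PBS cells were not analysed here.

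Genes were kept by filterByExpr (16117) and tested with the edgeR 4.0.16 quasi-likelihood test (TMM scaling, group and batch, all 9 libraries, Benjamini-Hochberg, adjusted p below 0.05) in R 4.3.3; treatment and batch comparisons come from this 1 fit. SE is the log2 fold change divided by the root of F. CPM are TMM-scaled, and log2 CPM had a prior count of 2. In the labels the replicate number is the batch; deviations from group means correlated at 0.705 to 0.917 in same-number pairs and at -0.84 to 0.764 in others. DESeq2 1.42.0 (genes with at least 10 counts in all), limma 3.58.1 voom, other scalings, no filter, no block and leaving out libraries or batches were alternatives. Methods were tested on simulated data. Positions come from GENCODE annotation lifted to GRCh37. The 9 genes and all lists were chosen with earlier results of these data known. All 9 genes are named; of each list, up to 4 called genes by lowest p, otherwise at most 2 with the lowest p.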

Additional observations from a re-analysis of the deposited data

How the results depend on the processing

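Of 195 recomputed counts of called genes, called collagen genes and called ratios, 137 stayed within 1.5 times the reported count and 58 did not; the cause was not tested where none is given. Between treatments edgeR called 0 genes in each comparison. With the replicate block, DESeq2 called 3 genes for the virus relative to PBS, 244 for LTA relative to the virus and 236 for LTA relative to PBS, of which 0, 1 and 0 were among the 9 collagen genes. With no low-count filter edgeR called 30, 1016 and 1045 genes in that order, and 1, 3 and 3 of the 9. With no replicate block edgeR called 0, 0 and 0 genes (42, 153 and 141 at an unadjusted p below 0.05, against 678, 2486 and 2709 with the block), and DESeq2 with no replicate block called 1, 1 and 0. On the 6 libraries compared, with the block, edgeR called 2 genes for the virus relative to PBS.

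When 1 library or 1 batch was left out, edgeR called 0 to 5 genes for the virus relative to PBS, 0 to 2390 for LTA relative to the virus and 0 to 2648 for LTA relative to PBS, with 0 to 4 of the 9 in both comparisons with LTA. The highest counts came without the HIV-1+LTA library of batch 1. Leaving out all of batch 1 gave 1567 and 1733 genes, and leaving out the PBS library of batch 1 gave 90 for LTA relative to PBS.

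In batch 2 against batch 1 (5 genes, 2 of the 9) DESeq2 with the block called 105 genes, edgeR with no low-count filter 332, limma-voom 8, and edgeR on batch with no treatment group 2, of which 1 was among the 9. With 1 library left out the count ran from 1 (without the PBS library of batch 2) to 214 (without the HIV-1+LTA library of batch 1), and from 0 to 3 of the 9. Of the chain ratios, 3 passed with all libraries, 0 when permuted within treatment and 0 to 3 with 1 library left out. Both of these settings have fewer assignments, which raises the smallest p.

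Some differences near 0 changed sign. With library totals only, COL18A1 was at 0.059 for LTA relative to PBS and COL4A2 at -0.094 in batch 3. Batch 3 against batch 2 alone gave -0.035 for COL4A2, and against batch 1 alone 0.21 for COL18A1. With 1 library or batch left out, log2 fold changes of the virus relative to PBS ran from -0.11 to 0.16 for COL4A1, -0.060 to 0.11 for COL4A2 and -0.25 to 0.41 for COL4A6. Those of LTA relative to the virus ran from -0.35 to 0.10 for COL15A1 and -0.17 to 0.10 for COL18A1, and those of LTA relative to PBS from -0.061 to 0.26 for COL6A3 and -0.12 to 0.18 for COL18A1. In batch 2 against batch 1 they ran from -0.10 to 0.22 for COL4A1, -0.021 to 0.31 for COL4A5 and -0.064 to 0.15 for COL6A3. COL15A1, with 29 to 124 counts per library, and COL4A6, with 93 to 582, had the lowest counts of the collagen genes described here. Their edgeR SE for LTA relative to the virus, 0.250 and 0.211, were also the largest among these genes. The part of counting error in these SE was not tested.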
